A study of Caenorhabditis elegans with 6 samples.

Results

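Divergent pairs of protein-coding genes, whose 5′ ends face away from each other across a short stretch of shared upstream DNA, were examined for open chromatin in isolated germ nuclei (IGN) of C. elegans. A pair was taken as 2 neighbouring coding genes of the Ensembl annotation (WBcel235, the same assembly as ce11) on opposite strands, with the minus-strand gene on the left, no overlap, and at most 1000 bp between their annotated 5′ ends. The region of a pair is the gap between the 5′ ends plus 100 bp on each side. This gave 1717 pairs among 9068 gaps of at most 1000 bp between neighbouring coding genes, the others being 5548 tandem gaps (both genes on the same strand) and 1803 convergent gaps (3′ ends facing each other). The pairs hold 3434 of 19973 coding genes, 17.2% (95% Wilson interval 16.7 to 17.7), and their regions cover 1.19% of the 6 nuclear chromosomes.

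The data are ATAC-seq peaks. In this assay the Tn5 transposase inserts sequencing adapters into DNA that is not wrapped in nucleosomes, so that a peak marks accessible chromatin. Young adults of strain VC2010 served as wild type, and SX2499, which carries prde-1(mj207) on chromosome V, lacks PRDE-1, a germline component of the upstream sequence transcription complex (USTC) that drives piRNA genes. The mutant strain becomes sterile over generations and was backcrossed before use, and its animals were harvested some hours later after plating than wild type. There were 3 samples of each genotype, each of nuclei from many pooled animals, but only 1 peak list per genotype, so no value has a spread over samples and depth per sample is unknown. Intervals below cover counting error only, and whether a difference between the lists exceeds the spread between samples could not be assessed. The label of the nuclei was checked with marker genes: 26 of 44 germ line genes had a wild type summit within 500 bp of the 5′ end (59.1%, 44.4 to 72.3), compared with 5 of 28 somatic genes (17.9%, 7.88 to 35.6) and 25.9% of all coding genes (25.3 to 26.5). In the prde-1 list 30 of 44 germ line genes had a summit (68.2%, 53.4 to 80.0) and 9 of 28 somatic genes did (32.1%, 17.9 to 50.7), against 22.2% of all coding genes (21.6 to 22.7). The somatic genes thus lay below the share of all genes in wild type and above it in the mutant, with an interval that includes that share in both lists. The marker lists also differ in pair membership, with a germ line gene in 18 divergent pairs and a somatic gene in 2. In wild type, 49.7% of all coding genes in divergent pairs had such a summit (48.0 to 51.4), against 21.0% of those outside (20.4 to 21.6). The part of this in the marker shares was not tested.

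As background, the DNA between divergent genes holds both promoters, and a single nucleosome-depleted stretch can serve transcription in both directions. In animals such arrangements are known for genes that most cells use and for histone genes, where H2A faces H2B or H3 faces H4. In C. elegans many mature 5′ ends come from trans-splicing, so an annotated 5′ end can lie downstream of the place where transcription starts.

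The 6 gaps below show what these regions look like. Each is given 5′ to 3′ on the plus strand, from the base after the 5′ end of the minus-strand gene to the base before the 5′ end of the plus-strand gene, and capitals mark the 10 bases on each side of the highest-scoring wild type summit in the region together with the summit base. The first is a gap of at most 300 bases chosen for its high-ranked peak, between a histone H3 and a histone H4 gene (chrIV:11406862-11407115). The second lies under the widest peak of all pairs (chrIII:13771225-13771512). The third, from another pair of H3 and H4 genes, carries a sequence in common with the first (chrV:16042284-16042519), and the fourth lies between small heat shock protein genes (chrV:1804958-1805177). The last 2 are those of at most 300 bases with the highest-ranked wild type peaks lacking a prde-1 counterpart (chrIV:1104619-1104765 and chrX:8835716-8836015). The C44B12.9/C44B12.3 gap has no capitals because its summit lay inside C44B12.9, 77 bp from the 5′ end. In the sec-15/C28G1.2 gap the capitals mark a higher-ranked summit that is present in both lists, and they stop at the end of the gap. The summit without a counterpart lay outside that gap, inside sec-15 and 65 bp from its 5′ end.
his-63/his-64: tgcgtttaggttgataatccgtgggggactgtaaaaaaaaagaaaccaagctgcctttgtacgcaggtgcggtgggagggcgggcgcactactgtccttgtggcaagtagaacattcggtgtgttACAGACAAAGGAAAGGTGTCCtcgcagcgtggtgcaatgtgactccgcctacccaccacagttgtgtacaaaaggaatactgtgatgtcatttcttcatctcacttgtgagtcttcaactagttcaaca
cyk-4/pdr-1: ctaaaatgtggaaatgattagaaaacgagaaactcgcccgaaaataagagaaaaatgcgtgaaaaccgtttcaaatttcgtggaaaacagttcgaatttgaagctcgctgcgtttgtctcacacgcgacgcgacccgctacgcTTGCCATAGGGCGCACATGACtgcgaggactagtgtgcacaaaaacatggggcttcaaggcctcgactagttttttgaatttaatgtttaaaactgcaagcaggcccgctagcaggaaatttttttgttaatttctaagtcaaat
his-2/his-1: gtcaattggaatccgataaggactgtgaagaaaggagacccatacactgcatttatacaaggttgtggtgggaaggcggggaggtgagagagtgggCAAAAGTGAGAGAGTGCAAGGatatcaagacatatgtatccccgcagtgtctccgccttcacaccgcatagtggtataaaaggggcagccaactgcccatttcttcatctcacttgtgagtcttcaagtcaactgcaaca
hsp-16.2/hsp-16.41: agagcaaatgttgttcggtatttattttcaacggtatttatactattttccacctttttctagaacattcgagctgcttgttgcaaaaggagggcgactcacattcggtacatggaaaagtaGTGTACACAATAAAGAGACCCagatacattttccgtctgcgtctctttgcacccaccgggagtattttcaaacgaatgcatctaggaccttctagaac
C44B12.9/C44B12.3: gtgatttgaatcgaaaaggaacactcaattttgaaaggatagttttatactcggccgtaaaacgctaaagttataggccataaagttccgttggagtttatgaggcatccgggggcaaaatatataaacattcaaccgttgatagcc
sec-15/C28G1.2: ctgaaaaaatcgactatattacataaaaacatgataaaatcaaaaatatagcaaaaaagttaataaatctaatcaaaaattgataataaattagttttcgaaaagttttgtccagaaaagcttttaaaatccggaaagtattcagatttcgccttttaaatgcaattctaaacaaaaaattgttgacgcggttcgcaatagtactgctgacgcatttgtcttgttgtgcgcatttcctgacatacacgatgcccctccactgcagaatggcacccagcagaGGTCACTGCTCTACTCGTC

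These 2 histone gaps, his-63/his-64 and his-2/his-1, share a run of 30 bases, catttcttcatctcacttgtgagtcttcaa, near the 5′ end of the plus-strand gene. GC content was 48.4% in the his-63/his-64 gap and 48.3% in the his-2/his-1 gap, compared with a median of 33.1% over the gaps of all 1717 pairs. The hsp-16.2/hsp-16.41 gap holds 3 matches to the heat shock element, searched as TTCNNGAA or GAANNTTC (each the same on both strands), to which heat shock factor binds. In the 200 bp around the midpoint it holds 2, and 90 of the 1717 pairs hold at least 2 in that window (5.24%, 4.28 to 6.40).

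Open chromatin was frequent in these regions in both genotypes. In wild type, 987 of 13996 peaks had their summit in a divergent region (7.05%, 6.64 to 7.49), which is 829 summits per Mb against 140 per Mb over the nuclear genome. In the prde-1 mutant, 940 of 9674 peaks did (9.72%, 9.14 to 10.3), or 790 per Mb against 96.5 per Mb. The regions thus held nearly as many summits in the mutant as in wild type (a ratio of 0.952), while the rest of the genome held 0.671 times as many. With the wild type list limited to its 9674 highest-scoring peaks, the wild type share was 8.47% (7.93 to 9.04).

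Counted by region, 891 of 1717 pairs held a wild type summit (51.9%, 49.5 to 54.2) and 860 held a prde-1 summit (50.1%, 47.7 to 52.4). The order of the genotypes depends on the lengths of the lists: with the 9674 highest-scoring wild type peaks, 45% of pairs held a wild type summit (42.7 to 47.4). In the full lists, both had a summit in 843 pairs and neither had one in 809. In 48 pairs (2.80%, 2.11 to 3.69) the summit was found in wild type only, and in 17 (0.990%, 0.619 to 1.58) in the mutant only. A wild type peak still covered part of the region in 12 of those 17, among them 3 pairs with a ribosomal protein gene (ify-1/rpl-22, ifet-1/rps-1 and rpl-7A/set-21, named after their values were seen).

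In each of 6 classes of spacing, divergent gaps held a wild type summit most often and convergent gaps least often. A wild type summit was found in 17.4% of tandem gaps (16.4 to 18.4) and in 6.05% of convergent gaps (5.04 to 7.24). Weighting these gaps to the distances of the divergent pairs gave 20.6% for tandem gaps, a difference of 31.3 percentage points (28.7 to 33.9), and 7.77% for convergent gaps, a difference of 44.1 points (41.4 to 46.9). Tandem gaps include those inside operons, where the downstream gene need not have a promoter of its own. Single promoters, meaning 15282 coding genes in no divergent pair and with no other coding 5′ end within 1000 bp, were compared too. In windows of matched length upstream of these genes, 18.4% held a wild type summit, 33.4 points below the divergent regions (31.1 to 35.8). This set can still hold downstream operon genes, where the 5′ end of the upstream gene is over 1000 bp away. With only genes that have no coding gene within 1000 bp upstream, the difference was 32.9 points (30.4 to 35.3). Each such window serves a single gene, while a divergent region holds the 5′ ends of both genes of its pair. The same differences in the prde-1 list were 32.1 points for tandem gaps (29.6 to 34.7), 44.6 for convergent gaps (41.9 to 47.2) and 34.7 for single promoters (32.4 to 37.1).

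Within the divergent pairs, the share with a wild type summit changed with spacing. It was 38.9% (27.0 to 52.2, 54 pairs) at up to 100 bp between the 5′ ends and 35.9% (29.5 to 42.9, 192 pairs) at over 100 and up to 200 bp. It reached 59.5% (53.4 to 65.3, 259 pairs) at over 200 and up to 300 bp and 63.2% (58.4 to 67.8, 402 pairs) at over 300 and up to 500 bp. Beyond 500 bp it was 52.2% up to 750 bp (47.7 to 56.7, 467 pairs) and 43.4% above that (38.3 to 48.7, 343 pairs). The middle of this range stands above both ends, since the intervals at 200 to 500 bp overlap neither those at 100 to 200 bp nor that above 750 bp. The prde-1 shares followed the same course, from 33.3% in the 2 shortest classes to 62.7% at over 300 and up to 500 bp and 42.3% above 750 bp. The closest pair inside the limit, msrp-4/F46F5.10 (999 bp), and the closest outside it, Y54G2A.52/Y54G2A.10 (1003 bp), had no summit in either list.

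**Figure D1:**
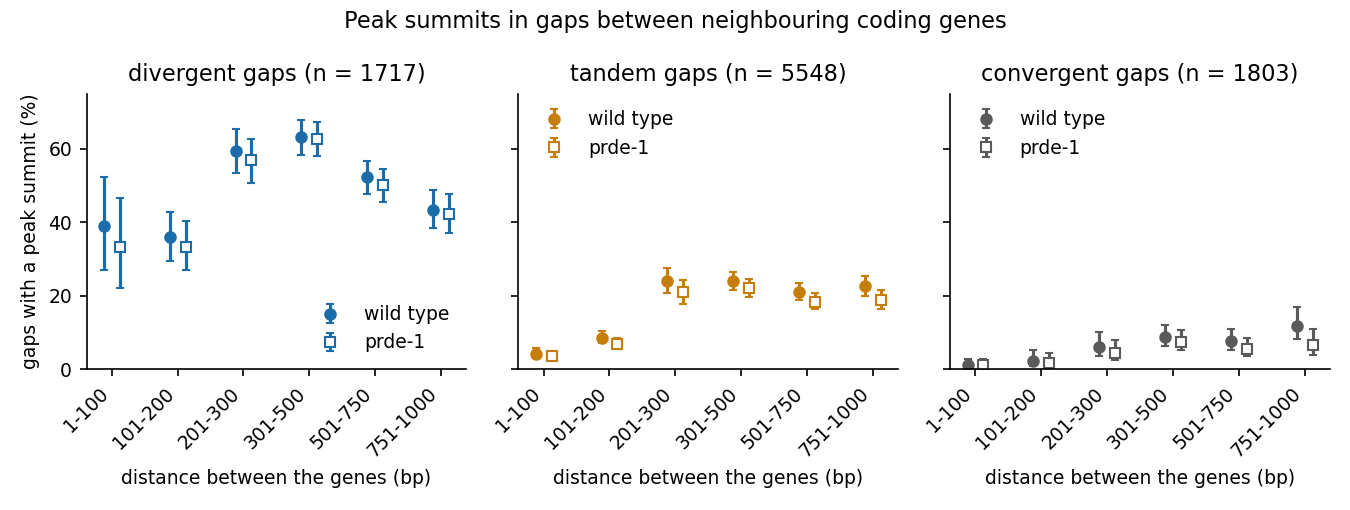
Share of gaps with a peak summit (y axis, percent) by distance between the genes (x axis, bp) for divergent, tandem and convergent gaps; filled circles are wild type, open squares prde-1, and bars are 95% Wilson intervals. Divergent gaps reach 63.2% at over 300 and up to 500 bp in wild type, while tandem gaps stay at or below 24.0% and convergent gaps at or below 11.9%.

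The summit usually lay between the genes. In wild type, 888 of 987 summits fell between the 5′ ends (90.0%, 87.9 to 91.7), and the median distance to the nearer 5′ end was 121 bp (quartiles 57 and 182). Of the 987 summits, 471 were nearer to the minus-strand gene (47.7%, 44.6 to 50.8), an interval that includes an even split. The distance to the nearer 5′ end grew with spacing, from a median of 78.0 bp at over 200 and up to 300 bp to 123 bp at over 300 and up to 500 bp and 199 bp above 750 bp. At the last spacing the median distance to the farther 5′ end was 661 bp. A peak covered both 5′ ends in 137 cases (13.9%, 11.9 to 16.2), 1 of them in 485 (49.1%) and neither in 365 (37.0%). Among peaks at spacings of up to 100 bp, 19 of 21 covered both ends, and above 750 bp 5 of 184 did.

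**Figure D2:**
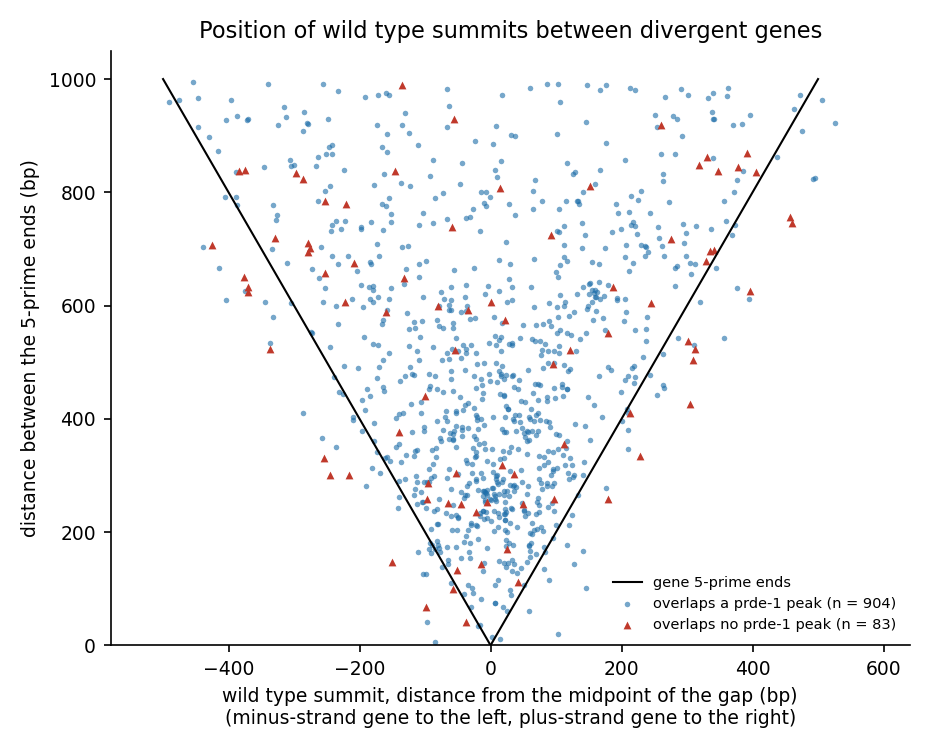
Each point is a wild type summit in a divergent region, placed by its distance from the midpoint of the gap (x axis, bp) and by the distance between the 5′ ends (y axis, bp), which are drawn as 2 black lines. Of 987 summits, 888 lie between the lines, and the 83 red triangles mark peaks that overlap no prde-1 peak.

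Most regions with a peak held a single wild type summit, which was the case in 799 pairs. There were 88 pairs with 2 summits and 4 pairs with 3. In the 88 pairs the 5′ ends were a median of 676 bp apart and the summits a median of 390 bp apart, and in 80 of them (90.9%, 83.1 to 95.3) the summits lay on opposite sides of the midpoint. Both peaks overlapped a prde-1 peak in 54 of these pairs, 1 of them did in 32, and neither did in 2.

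Peaks between divergent genes were ranked by score, which sums −log10 p over the bases of a peak. Their median rank was at 37.7% of the wild type list (quartiles 21.8 and 59.5, where 0% is the highest score), compared with 51.1% for all other peaks, and 65.5% were in the upper 50% (62.4 to 68.4). The highest 10% of the list held 106 of the 987, or 10.7% (8.96 to 12.8), and thus about its own share. Peaks at single promoters had a median rank at 45.2%. Over the whole list the peaks between divergent genes were narrower, with a median width of 266 bp (quartiles 161 and 552) against 337 bp elsewhere (quartiles 219 and 569). Their −log10 p at the summit had a median of 12.8, against 7.75 for other peaks. The order of the widths turned with rank. In the highest 3 of 10 equal groups by rank, the medians were 1257, 633 and 456 bp between divergent genes and 949, 573 and 444 bp elsewhere, and in the lower 7 groups peaks between divergent genes were the narrower ones. In the prde-1 list the median rank was at 42.3%, 87 of 940 peaks were in the highest 10% (9.26%, 7.56 to 11.3), and the median width was 214 bp, against 296 bp for other peaks. Ranks of single peaks given below count from the highest score in each list, and the same rank is farther down the shorter prde-1 list.

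Of the 10 pairs with the highest-ranked wild type peaks, 3 are histone pairs. The first was his-61/his-62 (an H2A and an H2B gene on chromosome IV, 328 bp apart), at rank 5 of 13996 with a width of 3574 bp, and at rank 3 of 9674 with 3360 bp in the mutant. The histone pairs his-63/his-64 and his-67/his-68 had wild type ranks 50 and 62, with prde-1 ranks 121 and 12. Ahead of both stood pde-6/Y95B8A.6, with a cyclic nucleotide phosphodiesterase gene, at wild type rank 39 and prde-1 rank 52. T27E9.2/ant-1.1, with a mitochondrial ADP/ATP translocase gene, had ranks 64 and 61. The ranks were 71 and 38 at ift-43/mdt-26, which pairs an intraflagellar transport gene with a Mediator subunit gene. At smn-1/klp-16, with the gene of the survival motor neuron protein that assembles spliceosomal particles and a kinesin gene, they were 92 and 440. At cyk-4/pdr-1, with a GTPase-activating protein of the central spindle and the worm parkin gene, they were 99 and 1439. The last of these pairs, epc-1/Y111B2A.12, with a gene of the enhancer of Polycomb family, and rps-13/nfx-1, with a ribosomal protein gene, had ranks 100 and 60, and 105 and 143. A prde-1 summit was thus present at each of the 10.

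The 3 widest wild type peaks belonged to cyk-4/pdr-1 with 5243 bp, smn-1/klp-16 with 4714 bp and fib-1/mut-15 with 3894 bp. The last pairs fibrillarin, a methyltransferase of ribosomal RNA, with a gene of small RNA amplification. In the mutant their widths were 696 bp, 1500 bp and 1843 bp. The cyk-4/pdr-1 summit had moved from position 13771378 to 13771382 of chromosome III, and the summits of smn-1/klp-16 and fib-1/mut-15 were at the same base in both lists.

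Over the 733 pairs with 1 summit in each list, the summit moved by a median of 2.00 bp and by at most 50 bp in 716 of them (97.7%, 96.3 to 98.5). Among 7549 other wild type peaks that overlap a single prde-1 peak, 91.7% moved by at most 50 bp (91.0 to 92.3). The prde-1 peak was narrower at 576 of the 733 pairs (78.6%, 75.5 to 81.4), with a median ratio of widths of 0.951 (quartiles 0.741 and 0.994), against 0.896 at the other peaks. Width depends on the p-value at each base and so on the depth of the pooled reads, which is not known for either list.

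**Figure D3:**
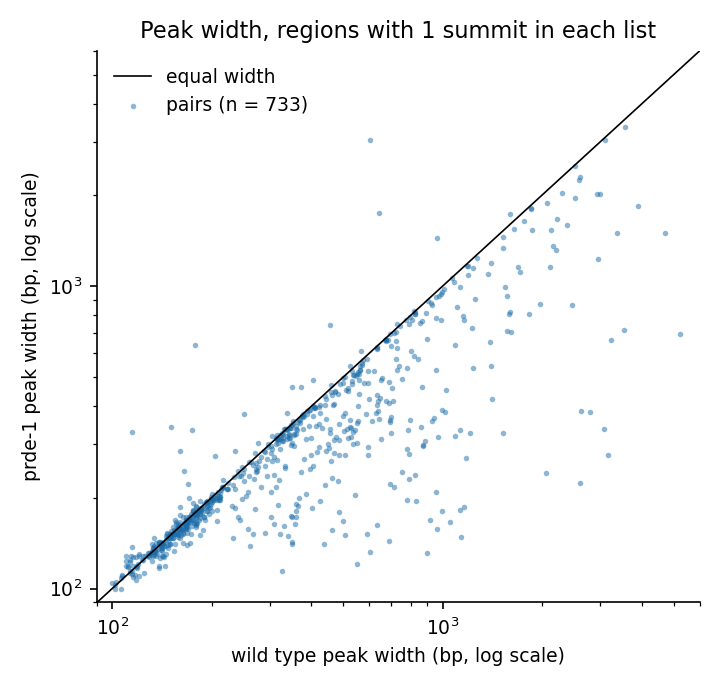
Width of the prde-1 peak (y axis, bp, log scale) against that of the wild type peak (x axis, bp, log scale) in the 733 divergent regions with 1 summit in each list, with a line at equal width. Most points lie on or just below the line, and 576 of 733 peaks were narrower in the mutant.

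Fewer peaks were without a counterpart in the mutant between divergent genes than elsewhere. Over all wild type peaks 36.1% overlapped no prde-1 peak. In divergent regions 83 of 987 did not (8.41%, 6.84 to 10.3), compared with 4964 of 13009 other peaks (38.2%, 37.3 to 39.0), a difference of −29.7 percentage points (−31.5 to −27.7). The share depends on the lists and the overlap asked for. With the 9674 highest-scoring wild type peaks it was 2.20% (1.39 to 3.45), and the difference from other peaks −15.8 points (−16.9 to −14.3). With 50% of the wild type peak to be covered it was 19.8% (17.4 to 22.4), and the difference −26.1 points (−28.7 to −23.4). Low-scoring peaks lacked a counterpart far more often than high-scoring ones, and so the shares were also compared within 10 groups of equal size by rank. Rank follows the summed score, so peaks of 1 group can still differ in width and in summit height. In the seventh group the median width was 153 bp in divergent regions and 267 bp for other peaks. The part of this in the shares was not tested. In the fifth group 1 peak in divergent regions had no counterpart (0.840%, 0.148 to 4.61), against 21.3% of other peaks. In the seventh it was 13 of 85 (15.3%, 9.16 to 24.4) against 55.8%, and in the lowest 29 of 44 (65.9%, 51.1 to 78.1) against 90.6%. Weighted over the groups, the difference was −17.8 points (−19.3 to −16.3).

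Base composition went with this comparison as well. The median GC content was 39.9% for peaks in divergent regions and 44.5% for other wild type peaks. Within groups by rank and GC content together the difference was −9.13 points (−10.5 to −7.75). Peaks at single promoters lay between the others, with 646 of 3036 lacking a counterpart (21.3%, 19.9 to 22.8) at a median GC content of 42.3%. Against these the difference was −7.0 points within rank groups (−8.69 to −5.31) and −3.51 points within groups by rank and GC content (−5.0 to −2.02). Against peaks in tandem gaps it was −4.16 points within rank groups (−6.26 to −2.05). Intervals within groups can be too narrow, most of all by rank and GC content together. Groups in which all or none of the peaks lacked a counterpart add no counting error.

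**Figure D4:**
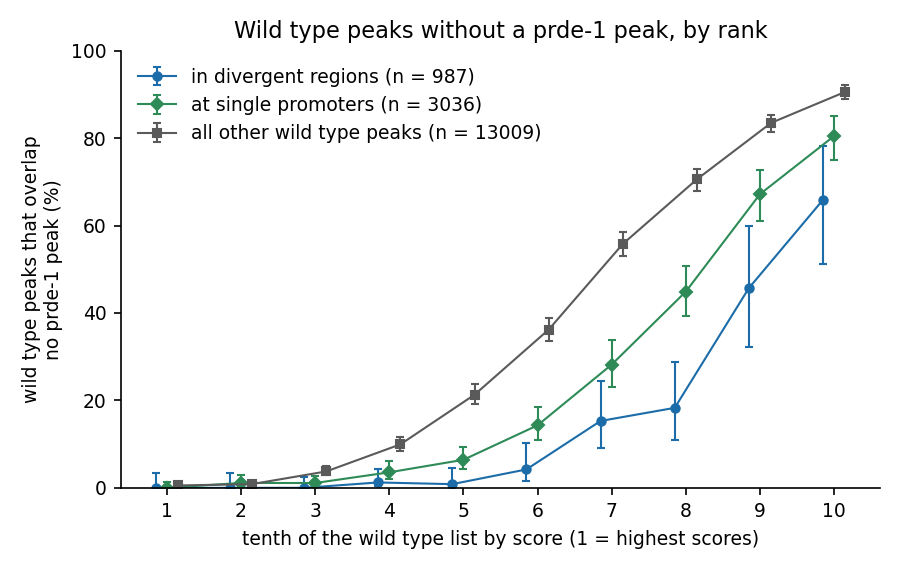
Share of wild type peaks that overlap no prde-1 peak (y axis, percent) in 10 groups of equal size by score (x axis, 1 is the highest), for peaks in divergent regions, at single promoters and all other wild type peaks, which include those at single promoters; bars are 95% Wilson intervals. In the seventh group the shares are 15.3%, 28.2% and 55.8%.

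The peaks without a counterpart were at low ranks. Their median rank was at 84.8% of the list and their median width 185 bp, compared with 35.5% and 300 bp for those with one. The 5 highest-ranked were at C44B12.9/C44B12.3 (rank 4591, 867 bp wide), Y73B3A.1/Y73B3A.20 (rank 5580, 350 bp), F59B10.2/F59B10.3 (rank 6545, 305 bp), sec-15/C28G1.2 (rank 7747, 249 bp) and nhr-59/fbxa-137 (rank 8010, 225 bp). The summit lay in the flank, inside a gene, at the first of these and at Y73B3A.1/Y73B3A.20 and sec-15/C28G1.2. At sec-15/C28G1.2, which includes an exocyst subunit gene, a further peak at wild type rank 569 had its summit 9 bp from the 5′ end of C28G1.2, and its prde-1 counterpart had the summit at the same base. At nhr-59/fbxa-137, a nuclear hormone receptor gene and an F-box gene, a peak at rank 7416 was also found in both lists.

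Peaks found only in the mutant were rare. They numbered 8 of 940 in divergent regions (0.851%, 0.432 to 1.67), against 1.91% of all prde-1 peaks and 177 of 8734 elsewhere (2.03%, 1.75 to 2.34). All 8 were in the lowest 10% of the prde-1 list. The first 5 were at hop-1/swsn-2.2 (rank 8759, 125 bp), ugt-12/T19H12.2 (rank 9087), tat-4/blos-4 (rank 9284), impt-1/Y52B11A.3 (rank 9407) and T15B7.15/hpo-8 (rank 9423). The first of these pairs has a presenilin gene, and at it and at ugt-12/T19H12.2 a second summit was present in both lists.

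Chromosome X differed from the autosomes in the number of pairs. It holds 79, or 5.79% of its coding genes in pairs, against 19.0% on the autosomes. As background, most genes on the X are repressed in the C. elegans germ line. A wild type summit was found in 42 of the 79 X pairs (53.2%, 42.3 to 63.8) and in 849 of 1638 autosomal pairs (51.8%, 49.4 to 54.2). On the autosomes the share was lowest on chromosome V with 40.8% (36.2 to 45.6) and highest on chromosome III with 67.6% (62.0 to 72.8). Of 49 wild type peaks in X regions, 12 overlapped no prde-1 peak (24.5%, 14.6 to 38.1), against 71 of 938 on the autosomes (7.57%, 6.04 to 9.44). The difference was 16.9 points (6.86 to 30.6), and 16.6 points within rank groups (10.2 to 23.1). Within rank groups, X peaks in divergent regions differed from the other X peaks by 1.18 points, with an interval that includes 0 (−5.25 to 7.60). Both intervals within rank groups can be too narrow, because the 49 X peaks are spread thinly over the groups. A group in which all or none of them lacked a counterpart adds no counting error for them. Among other peaks the order was the opposite, with 33.8% lacking a counterpart on X (31.8 to 35.7) and 39.1% on the autosomes (38.2 to 40.0). The highest-ranked X pair was his-38/his-40, at rank 531.

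In the piRNA domains, windows of 3.5 Mb and 1.5 Mb placed on chromosome IV where annotated piRNA genes are densest, lay 52 pairs. A wild type summit was found in 17 of them (32.7%, 21.5 to 46.2), compared with 120 of 251 pairs elsewhere on chromosome IV (47.8%, 41.7 to 54). These intervals overlap, which does not show that the shares are alike, and no interval was computed for the difference. A prde-1 summit was also found in 17. Of 18 wild type peaks there 1 had no prde-1 counterpart. The highest-ranked was at rank 125 in wild type and rank 96 in the mutant, between the genes WBGene00185102 and WBGene00194913.

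The share of pairs with a summit differed widely between gene families. Of 44 pairs with a cytosolic ribosomal protein gene, 40 held a wild type summit (90.9%, 78.8 to 96.4) and 43 a prde-1 summit. Mitochondrial ribosomal proteins (21 of 23 pairs, 91.3%), proteasome subunits (18 of 20, 90.0%), splicing proteins (14 of 16, 87.5%) and translation initiation factors (11 of 13, 84.6%) were similar. Nuclear pore genes held one in 10 of 12 pairs, aminoacyl-tRNA synthetases in 8 of 10, and complex I or cytochrome oxidase genes in 9 of 9. All 6 chaperonin pairs, all 4 RNA polymerase II pairs and all 3 MCM helicase pairs held one. These families share a use in most cells. They were also often in divergent pairs, with 60.3% of cytosolic ribosomal protein genes, 60.6% of proteasome genes and 66.7% of splicing genes, against 17.2% of all coding genes. Ribosomal protein genes on both sides were found in 3 pairs. The wild type ranks were 639 at rps-10/rpl-24.1, 3268 at rpl-39/rps-30 and 7637 at rps-14/rpl-36, and each had a prde-1 counterpart.

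Among families with more restricted expression, shares were lower in chemoreceptors, lectins, collagens and major sperm proteins than in all pairs. Chemoreceptor genes, which act in sensory neurons, had a wild type summit in 12 of 93 pairs (12.9%, 7.54 to 21.2), C-type lectins in 3 of 41 (7.32%, 2.52 to 19.4) and collagens of the cuticle in 4 of 17 (23.5%, 9.56 to 47.3). Nuclear hormone receptors had one in 6 of 15 (40.0%, 19.8 to 64.3). Homeobox genes had a wild type summit in 3 of 5 pairs (60%, 23.1 to 88.2) and a prde-1 summit in 4. Both wild type intervals include the 51.9% of all pairs. None of 10 pairs with a major sperm protein gene held one (0%, up to 27.8), a family whose expression is limited to sperm formation. None of the pairs with both genes from the lectins (12 pairs), the chemoreceptors (15 pairs) or the nuclear hormone receptors (3 pairs) had a summit in either list, among them clec-62/clec-63, srd-58/srd-59 and nhr-263/nhr-148.

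**Figure D5:**
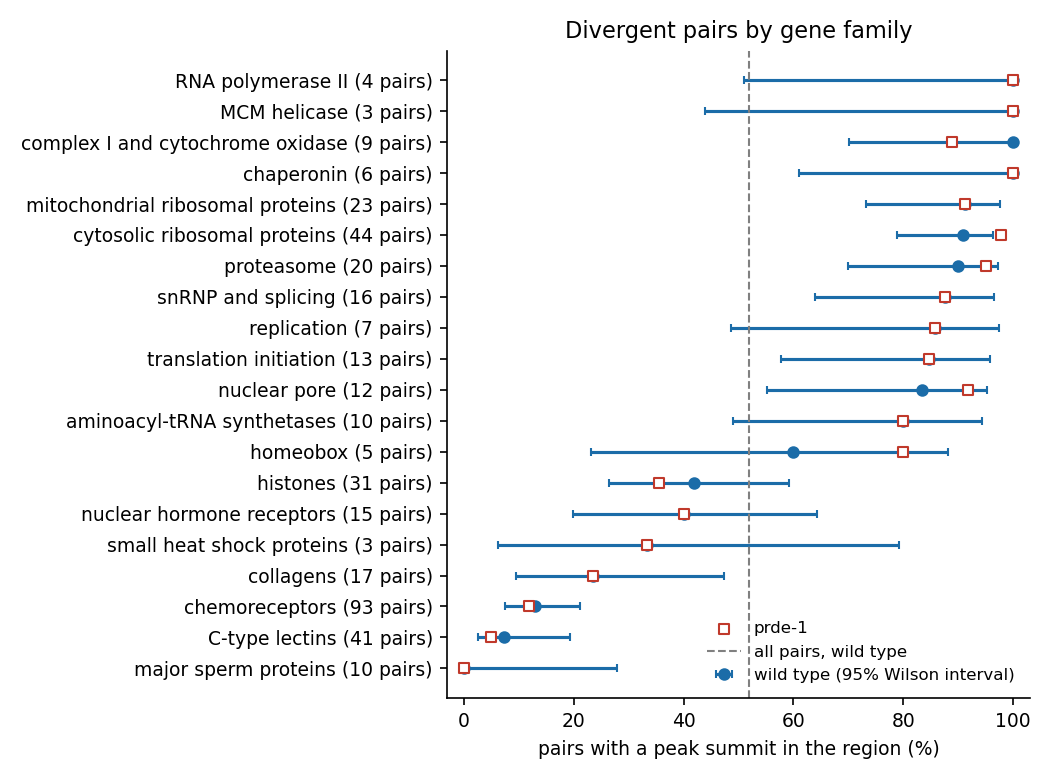
Share of divergent pairs with a summit (x axis, percent) for 20 gene families (y axis, number of pairs in parentheses); blue circles with 95% Wilson intervals are wild type, open red squares are prde-1, and the dashed line is the 51.9% of all pairs in wild type. The families listed in the text as used in most cells, which do not include histones (41.9%), lie at 80.0% or above. Chemoreceptors, C-type lectins and major sperm proteins lie at 12.9% or below.

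Histone genes stood out by arrangement. Of 72 annotated histone genes, 62 lie in 31 divergent pairs, all with a histone gene on both sides. A wild type summit was found in 13 of the 31 (41.9%, 26.4 to 59.2) and a prde-1 summit in 11. Where present, the peaks ranked between 5 and 12972 with a median width of 1523 bp, and 10 of the 13 were among the highest 10% of the list. Beside the 3 named above, his-2/his-1 had wild type rank 170 and prde-1 rank 367, and his-4/his-3 had ranks 209 and 356. Copy number goes with the absence of a peak. The central 31 bases of the gap occur once in the genome at 10 histone pairs, of which 9 held a wild type summit, and more than once at 21, of which 4 did. Reads with several matching places get a low mapping quality, on which the authors filtered, and the part of this in the missing peaks was not tested. At his-63/his-64 the central bases occur at 3 places, and the peak there was called. Over the other pairs, 859 of 1613 with unique central bases held a summit (53.3%, 50.8 to 55.7) and 19 of 73 with repeated ones did (26.0%, 17.3 to 37.1).

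Among the small heat shock proteins, the pairs with repeated central bases had no summit. All 6 genes of the hsp-16 family lie in 3 divergent pairs, an arrangement in which both genes are induced together by heat. The hsp-16.2/hsp-16.41 pair, printed above, had a peak at wild type rank 3532 of 13996 and prde-1 rank 2944 of 9674. Its summit was at the same base in both lists, and its width was 552 bp in wild type and 304 bp in the mutant. The pairs hsp-16.1/hsp-16.48 and hsp-16.48/hsp-16.1, whose central 31 bases occur at 2 places, had no summit in either list.

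Of 18 pairs with a gene of the germ line list, 16 held a wild type summit and 16 a prde-1 summit (88.9% each, 67.2 to 96.9), against 51.9% and 50.1% of all pairs. The highest-ranked were H27M09.5/syp-4 (wild type rank 214, also found in the mutant) and syp-3/F39H2.3 (613 and 280), both with genes of the synaptonemal complex, which joins homologous chromosomes in meiosis. The central 31 bases of the syp-3/F39H2.3 gap occur at 52 places in the genome. T07F8.4/gld-3 (2623 and 1844), cox-16/syp-2 (3403 and 2894), Y53C12B.1/nos-3 (3863 and 2649) and spn-4/spe-39 (4071 and 3382) followed, with regulators of germ cell RNA at gld-3, nos-3 and spn-4. These ranks are among 13996 wild type and 9674 prde-1 peaks, so a smaller number in the mutant need not be a higher place in its list. Of 2 pairs with a somatic gene, C18G1.9/elt-7, an intestinal GATA factor, held a summit at rank 3661, and pat-10/C46H11.6, a body wall muscle troponin C gene, held none.

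Pairs with and without a peak differed in sequence. In the 200 bp around the midpoint the median GC content was 34.5% in pairs with a wild type summit and 32.5% in those without, and the observed number of CpG dinucleotides was 1.39 times and 0.990 times the expected number. The motif GCGC, a palindrome that reads alike on both strands, was present in this window in 48.7% of pairs with a summit (45.4 to 52.0) and 19.2% of those without (16.7 to 22.1). With and without a summit together, it was present in 34.5% of divergent pairs (32.3 to 36.8), 20.6% of tandem gaps and 17.5% of convergent gaps. Its share in tandem or convergent gaps with a summit was not computed. Conversely, 434 of 593 pairs with GCGC held a summit (73.2%, 69.5 to 76.6), against 457 of 1124 without it (40.7%, 37.8 to 43.6). Within 5 groups of pairs by GC content and 6 classes of spacing the difference was 29.7 points (24.9 to 34.5). The longer GCGCGA, which contains GCGC, was found in 7.52% of pairs with a summit (5.96 to 9.44) and 3.51% without (2.46 to 5.00), and GAGAGA, on either strand, in 17.1% (14.7 to 19.7) and 10.2% (8.29 to 12.4).

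Other motifs differed little between the pairs. TATAAA on either strand was present in 25.8% of pairs with a summit (23.0 to 28.8) and 30.0% of those without (27.0 to 33.2), TTTTTT in 73.4% (70.4 to 76.2) and 69.7% (66.5 to 72.8), and CACGTG in 3.37% (2.37 to 4.77) and 4.72% (3.47 to 6.39). Histone pairs differed from all pairs in these motifs, with TATAAA in 19 of 31 (61.3%, 43.8 to 76.3) against 27.8% of all pairs, GAGAGA in 16 of 31 (51.6%, 34.8 to 68.0) against 13.7%, and TTTTTT in 3 of 31 (9.68%, 3.35 to 24.9) against 71.6%. GCGC was present in 6 of 31 histone pairs (19.4%, 9.19 to 36.3), compared with 34.5% of all pairs (32.3 to 36.8). The central bases are repeated at 21 of the histone pairs, so copies of a sequence are counted more than once. The intervals for histone pairs can therefore be too narrow. A match is a run of letters and not a measured binding site.

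Genes that are not coding touched 175 regions, of which 109 held a wild type summit (62.3%, 54.9 to 69.1), against 50.7% of the rest (48.2 to 53.2). Most were genes annotated as ncRNA, and 86 of the regions they touch held a summit (74.8%, 66.1 to 81.8). The 6 regions with snoRNA genes, which guide RNA modification, and the 4 with snRNA genes, which make spliceosomal RNAs, all held one. Of 39 regions with a piRNA gene, 11 did (28.2%, 16.5 to 43.8).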

How the data were processed

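Samples were 3 wild type and 3 prde-1 ATAC-seq libraries. Per the labels and methods, the authors trimmed reads (cutadapt), mapped them (Bowtie2, ce11), dropped those of low mapping quality and duplicates, merged the downsampled replicates, kept short fragments and called peaks with Genrich, whose versions are not given in the sources used here. The deposited lists give a score for each peak, which sums −log10 p over its bases, and the deposited −log10 p at the summit, which is not adjusted for multiple testing. Depth per sample is unknown.

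Genes came from Ensembl release 115 and sequence from RefSeq (both WBcel235, the same assembly as ce11), and no peak ran past its chromosome. Summits were placed 1-based. A peak had a counterpart if at least 1 base overlapped. Shares have 95% Wilson intervals, differences Newcombe intervals or, within groups, intervals from summed binomial variances. The last kind takes no error from a share of all or none in a group, so it can be too narrow where groups are small. No p-values were computed, since there is 1 list per genotype. Alternatives covered the distance limit, flanks, other genes, list depth, overlap and X. Python 3.11.15, numpy 2.4.6, pandas 2.3.3 and matplotlib 3.10.9 were used, and the functions were tested on simulated lists. Pairs named were the 10 with the highest wild type peaks, the 5 highest without a counterpart in each direction, the 3 widest, same-family pairs, marker pairs, the highest in the piRNA domains and on X, and those nearest the limit. The members and all lists were chosen with earlier results of these data known.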

Additional observations from a re-analysis of the deposited data

How the results depend on the processing

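Alternatives were computed for 90 combinations of result and setting. All 37 alternatives of the differences (in peaks without a counterpart, and against tandem gaps, convergent gaps and single promoters) kept their direction with an interval that leaves out 0. Of the other values, 29 moved outside their interval, as follows. With pairs at most 500 bp apart, 3.67% of wild type and 5.10% of prde-1 peaks were in the regions, 54.9% and 53.0% of regions held a summit, and 5.85% of wild type peaks had no counterpart. Without flanks the shares of peaks were 6.34% and 8.89%, and those of regions 48.0% and 46.7%. With regions that no other gene touches, the shares of peaks were 6.19% and 8.56%. With the upper 50% of each list they were 9.23% and 11.8%, the shares of regions 36.3% and 32.1%, peaks without a counterpart 14.9%, the median rank 53.9% and the median width 413 bp, which follows from the shorter lists. Without X the shares of peaks were 8.03% and 11.2%. With equal numbers of peaks, 8.47% of wild type peaks were in the regions, 45% of regions held one, and 2.20% had no counterpart. Counting any base of a peak gave 8.30% and 10.6% of peaks, 54.8% of regions in wild type and 12.5% without a counterpart. Asking for 50% of the wild type peak to be covered gave 19.8% without a counterpart, and a prde-1 summit in the same region 5.27%. These complete the values that moved. With only pairs of unique central bases, chosen after seeing the data, 53.5% and 51.9% of regions held a summit, both within the intervals reported. The difference within rank groups ranged from −24.0 (upper 50%) to −9.13 (rank and GC content). Depth per sample is unknown, so peaks near the caller's limit can differ by depth alone. No paired analysis was possible because each list pools the replicates of its genotype.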

Other observations

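Pairs just beyond the limit were also counted, a choice made after seeing the data. Of 776 divergent pairs more than 1000 and up to 2000 bp apart, 350 held a wild type summit (45.1%, 41.6 to 48.6) and 317 a prde-1 summit (40.9%, 37.4 to 44.3). Of 494 wild type peaks in these longer regions, 73 overlapped no prde-1 peak (14.8%, 11.9 to 18.2), compared with 8.41% (6.84 to 10.3) in the regions of at most 1000 bp. The pair tofu-4/htp-3, named after its values were seen, holds the gene of a USTC subunit and that of a meiotic axis protein from the germ line list. It had a summit at wild type rank 12337 of 13996 and at prde-1 rank 7611 of 9674.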
